A study of Homo sapiens with 2 samples.

Results

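The enzymes of glycolysis and of the citric acid cycle were followed in A549 cells with MYOCD knocked down and in wild type A549 cells. The members are 42 enzyme genes chosen by name: 21 of glycolysis and its glycogen branch, 7 of the pyruvate dehydrogenase step, and 14 of the citric acid cycle. A member was taken where a row of the deposited table carries exactly its symbol, which held for 41 of the 42, out of 12936 named genes. ENO2 was the missing one, because its row also names LRRC23.

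A549 is an established human lung adenocarcinoma line. MYOCD encodes myocardin, a coactivator of serum response factor in smooth and cardiac muscle. The tested cells carry the genotype label MYOCD knockdown, although the title of that sample is written MYOCD-/-, and the controls carry the label wild type. Doxycycline for 72 h is listed as the treatment of both, whereas the design text describes the wild type cells as having no treatment. An effect of doxycycline and one of the knockdown therefore cannot be told apart unless both cultures received it. The sources used here do not say how the knockdown was made or whether the cells are 1 clone. Each group had 1 library, so no difference below has a replicate error or a test. RNA came from bulk cultures, where fewer cells of a kind and less RNA per cell cannot be told apart.

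Glycolysis splits glucose into pyruvate in the cytosol and yields ATP without oxygen. Pyruvate is then either reduced to lactate by lactate dehydrogenase or taken into mitochondria, where the pyruvate dehydrogenase complex turns it into acetyl-CoA for the citric acid cycle. Pyruvate dehydrogenase kinases (PDKs) switch that complex off. Tumour cells often run glycolysis at a high rate even in air, and many glycolytic genes are textbook targets of the hypoxia-inducible factors (HIFs).

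The table gives RPKM, in which the reads of a gene are divided by its transcript length and by library size, so levels of different genes can be set side by side. The difference of a gene is the log2 ratio of knockdown to wild type after adding 1 RPKM to both, negative where the knockdown library was lower, which understates the change of low genes. Summaries cover genes averaging 1 RPKM or more, a filter that 12158 named genes and 40 members passed. HK2 was under that level. The median log2 change over all of these genes was 0.01. Scaling both libraries to equal summed RPKM would lower log2 ratios by 0.20 where levels are high. In low genes, to which 1 RPKM adds more, it would lower them by less. All rows summed to 1.173e+06 RPKM in the knockdown and 1.022e+06 RPKM in the wild type library. Named genes that passed the filter summed to 591731 and 588877 RPKM, so nearly all of that gap lay in rows outside them. Directions below are relative to the median gene. MYOCD itself had 0.400 RPKM in the knockdown library and 0.881 RPKM in the wild type library, a log2 change of -0.43. Both values are under 1 RPKM, so MYOCD is below the filter too, and whether and how far it was lowered is uncertain. In every row of the table the higher of the 2 values was at least 0.652 RPKM. MYOCD reached that level only in the wild type library. The A549 and epithelial markers were present (10 of 10, summed at 6840 RPKM in the knockdown and 6906 RPKM in the wild type library). Of the lung alveolar markers 1 of 6 was found, NAPSA at 0.771 and 1.27 RPKM in knockdown and wild type cells. Among other cell types, 1 of 6 fibroblast, 0 of 4 endothelial and 1 of 4 leukocyte markers had a row of their own.

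Glycolytic messages were lower as a group in the knockdown library, while most messages of the citric acid cycle differed little. Of 19 glycolysis members, 16 had a log2 change below 0 and the median was -0.17. Of 14 cycle members, 6 were below 0 and the median was 0.04, a value that becomes -0.16 with equal sums. Over all named genes 47.9% were below 0. The glycolysis median minus the cycle median was -0.20 on the log2 scale. Ranges overlapped: 17 of 19 glycolysis members lay within the range of the cycle members, and the other 2, ALDOC and PFKFB4, lay below it. The highest 5 cycle members exceeded every glycolysis member. Summed RPKM of the glycolysis members was 10332 in knockdown and 11312 in wild type cells, or 91.3%. Summed RPKM of the cycle members was 981 in knockdown and 1006 in wild type cells, or 97.6%.

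**Figure D1:**
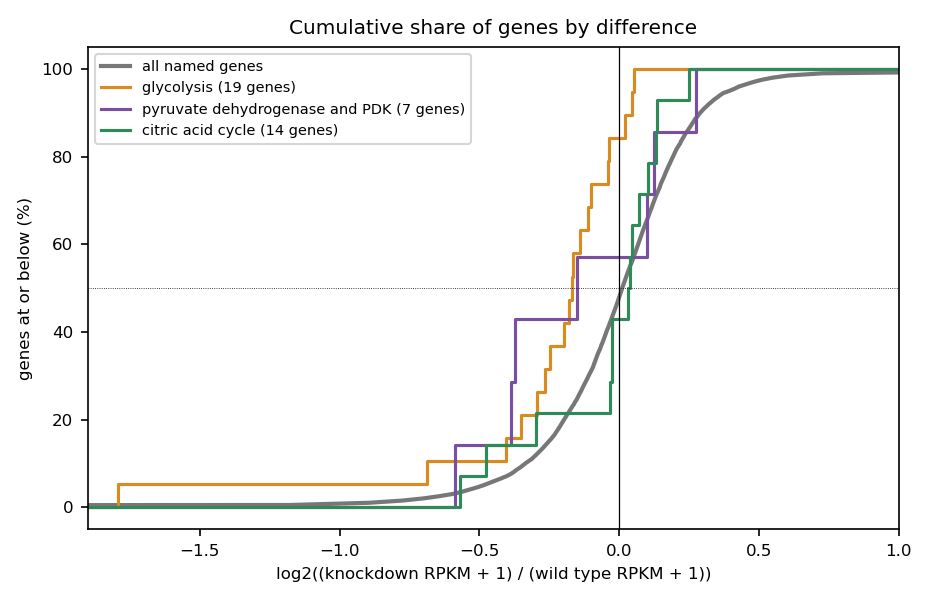
Cumulative share of genes (vertical axis, percent) at or below each log2 difference, knockdown over wild type (horizontal axis), for 19 glycolysis, 7 pyruvate dehydrogenase and 14 citric acid cycle members, and for 12158 named genes in grey. The glycolysis curve lies left of the grey curve, with a median of -0.17, and the cycle curve crosses the middle near it, with a median of 0.04 (-0.16 with equal sums).

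Members were counted where RPKM + 1 in the knockdown library was at least 20% lower, or at least 25% higher, than in the wild type library, sizes that mirror each other on the log2 scale. The lower size was reached by 9 of 40 members, or 22.5%, against 10.6% of all named genes. These were GPI, PFKL, PFKFB4 and ALDOC of glycolysis, the kinases PDK1, PDK2 and PDK3, and the isocitrate dehydrogenases IDH1 and IDH2. The higher size was reached by 0 of 40 members, against 7.99% of all named genes. PFKL, at -0.35, was the member just past the size, and IDH3G and PGK1, at -0.30 and -0.29, were just short of it. At 2-fold, 1 member was lower, ALDOC, against 0.724% of all named genes, and 0 were higher, against 0.65%. ALDOC passed the level filter only through its wild type value, as it had 0.492 RPKM in the knockdown library. Its place in these counts thus depends on the library where it was high. Low genes reach such sizes more often: 18% of named genes averaging 1 to 5 RPKM were at least 20% lower. ALDOC, PFKFB4 and PDK1 are of that level. Of 34 members averaging 20 RPKM or more, 4 were at least 20% lower, or 11.8%, against 6.29% of all named genes of that level.

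**Figure D2:**
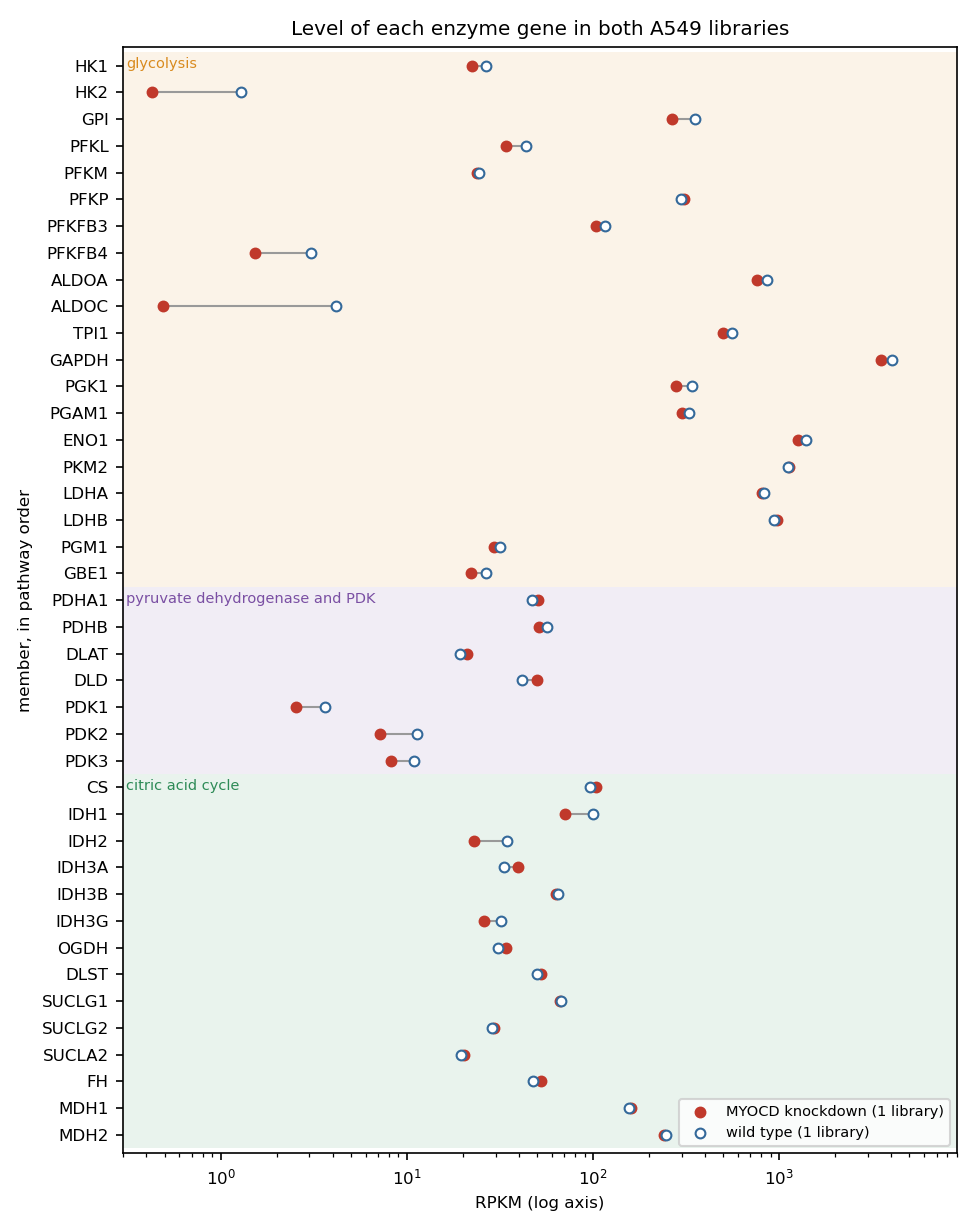
RPKM of each of the 41 members found (horizontal log axis) in the knockdown library (filled) and the wild type library (open), 1 library each, in pathway order. GAPDH is the most abundant at 3514 and 4027 RPKM in knockdown and wild type cells, and the widest gaps are those of the low genes ALDOC, HK2 and PFKFB4.

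The windows upstream of 4 glycolytic genes are shown because HIFs are known to bind a short core sequence in several such promoters. A part of HIFs in the differences was not tested. The core was searched as ACGTG or GCGTG, on the opposite strand CACGT or CACGC, in the 250 bases before each RefSeq start (GRCh38.p14), with overlapping matches counted as 1 site. Capitals mark the matches. ALDOC was the lowest member, PFKFB4 and PGK1 were also lower, and LDHA is the contrast, with nearly equal levels. They lie at chr17:28576896-28577145 (ALDOC, minus strand), chr3:48556804-48557053 (PFKFB4, minus), chrX:78103998-78104247 (PGK1, plus) and chr11:18394313-18394562 (LDHA, plus). For LDHA, which has 2 windows, the one with more sites is shown.
ALDOC: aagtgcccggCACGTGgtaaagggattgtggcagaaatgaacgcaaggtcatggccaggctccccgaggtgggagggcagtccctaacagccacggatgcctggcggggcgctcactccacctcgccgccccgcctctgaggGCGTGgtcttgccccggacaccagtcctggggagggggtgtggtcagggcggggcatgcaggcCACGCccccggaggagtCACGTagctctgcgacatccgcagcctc
PFKFB4: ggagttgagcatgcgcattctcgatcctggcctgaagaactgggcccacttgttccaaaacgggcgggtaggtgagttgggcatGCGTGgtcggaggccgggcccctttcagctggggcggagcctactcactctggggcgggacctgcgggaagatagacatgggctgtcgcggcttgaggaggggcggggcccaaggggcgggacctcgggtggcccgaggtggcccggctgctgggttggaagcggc
PGK1: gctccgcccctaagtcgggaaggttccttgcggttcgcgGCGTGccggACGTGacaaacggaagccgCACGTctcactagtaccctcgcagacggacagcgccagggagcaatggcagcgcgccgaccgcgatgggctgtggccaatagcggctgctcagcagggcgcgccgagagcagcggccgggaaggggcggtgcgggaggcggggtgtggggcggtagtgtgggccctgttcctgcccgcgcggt
LDHA: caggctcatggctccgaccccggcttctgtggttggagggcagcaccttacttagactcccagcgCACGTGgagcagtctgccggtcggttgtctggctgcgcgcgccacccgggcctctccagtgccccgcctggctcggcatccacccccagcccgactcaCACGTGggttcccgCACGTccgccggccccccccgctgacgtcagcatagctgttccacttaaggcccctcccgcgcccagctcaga

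These windows held 4 sites for ALDOC, 1 for PFKFB4, 3 for PGK1 and 3 for LDHA, so LDHA, with 804 and 823 RPKM in knockdown and wild type cells, carried as many as PGK1. Across members with a RefSeq window, 32 of 41 (78.0%) had at least 1 site in some window. By class these were 18 of 21 for glycolysis, 7 of 7 for the pyruvate dehydrogenase step and 7 of 13 for the cycle. All 9 members that were at least 20% lower had a site, as did 21 of the 30 that reached neither size and had a window. At least 3 sites in some window were held by 2 of those 9 (22.2%) and 7 of those 30 (23.3%). Among all measured genes averaging 1 RPKM or more and matched by symbol, 11.4% held that many. The letters are common: 43.2% of all 35116 windows hold them, as do 66.7% of the 8229 measured genes matched by symbol. Genes with several annotated starts have more chances to match. A match describes the sequence and shows no binding, and OGDH had no window to search.

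At the entry of glycolysis, hexokinase 1 (HK1), which phosphorylates glucose, had 22.3 RPKM in knockdown and 26.6 RPKM in wild type cells. HK2 (chr2:74833981-74893359 in GENCODE release 29 on GRCh38), the hypoxia- and insulin-responsive hexokinase, had 0.428 RPKM in knockdown and 1.29 RPKM in wild type cells. HK1 thus made up 98.1% of the HK1 and HK2 sum in knockdown cells and 95.4% in wild type cells, and HK2 message was scarce in both libraries. Read depth is unknown, so how few reads stand behind such low values cannot be given.

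GPI (chr19:34359480-34402413), the isomerase that makes fructose 6-phosphate, had 266 RPKM in knockdown cells and 352 RPKM in wild type cells. Its log2 change of -0.40 was the lowest of any glycolysis member averaging 20 RPKM or more. Phosphofructokinase commits the sugar to glycolysis, and its subunits differed among themselves. PFKL (chr21:44300051-44327376), the liver type, had 33.9 RPKM in knockdown and 43.5 RPKM in wild type cells. PFKM, the muscle type, had 23.7 and 24.4 RPKM in knockdown and wild type cells, and PFKP, the platelet type, had 308 and 297 RPKM. PFKP held 84.3% of the phosphofructokinase sum in knockdown and 81.4% in wild type cells, and that sum was nearly equal, at 366 and 365 RPKM in knockdown and wild type cells.

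PFKFB3 and PFKFB4 make and break fructose 2,6-bisphosphate, a potent activator of phosphofructokinase. PFKFB3 had 103 RPKM in knockdown and 116 RPKM in wild type cells. PFKFB4 (chr3:48517684-48562015) had 1.52 RPKM in knockdown and 3.06 RPKM in wild type cells, a log2 change of -0.69. The PFKFB4 gene holds the short RNA gene MIR6823 on its own strand, and PFKFB3 likewise holds MIR3155A. Whether these short RNAs add reads to either value is not known. PFKFB3 held 98.5% of the PFKFB3 and PFKFB4 sum in knockdown and 97.4% in wild type cells.

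Aldolase splits the 6-carbon sugar, and its forms stood far apart. ALDOC (chr17:28573115-28577264), the brain-type aldolase, had 0.492 RPKM in knockdown cells and 4.17 RPKM in wild type cells, or 11.8% of the wild type level. Its log2 change of -1.79 was the lowest of all members, and 0.337% of named genes were at or below it. ALDOC passed the level filter only through its wild type value. ALDOA, the main form, had 756 RPKM in knockdown and 857 RPKM in wild type cells. ALDOC made up 0.0651% of aldolase message in knockdown cells and 0.484% in wild type cells, so nearly all of the family sum, 756 and 861 RPKM in knockdown and wild type cells, was ALDOA.

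The abundant enzymes of the later steps of glycolysis were mostly a little lower in the knockdown library. TPI1, which interconverts the triose phosphates, had 498 RPKM in knockdown and 559 RPKM in wild type cells. GAPDH, which makes NADH at the first oxidation, had 3514 RPKM in knockdown and 4027 RPKM in wild type cells, a log2 change of -0.20. PGK1 (chrX:77910739-78129296), the first ATP-yielding step, had 278 RPKM in knockdown and 341 RPKM in wild type cells, a log2 change of -0.29. These genes sit one after another in the pathway, and each was lower by less than 20%. PGAM1, the phosphoglycerate mutase, had 302 and 326 RPKM in knockdown and wild type cells. ENO1, the main enolase, had 1267 and 1396 RPKM in knockdown and wild type cells. The shared row of ENO2 and LRRC23 had 50.4 RPKM in knockdown and 73.1 RPKM in wild type cells, and how much of it is ENO2, the neuronal enolase, is unknown.

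The end of the pathway was level between libraries. PKM2, an older symbol of the pyruvate kinase gene PKM, had 1132 RPKM in knockdown and 1117 RPKM in wild type cells, and this gene row does not separate the M1 and M2 splice forms. LDHA, the lactate dehydrogenase subunit that favours lactate formation, had 804 and 823 RPKM in knockdown and wild type cells. LDHB, the subunit more common in oxidative tissue, had 972 and 941 RPKM. LDHA was thus 45.3% of the LDHA and LDHB sum in knockdown cells and 46.7% in wild type cells. PKM2, LDHB and PFKP were the 3 glycolysis members above 0, with log2 changes of 0.02, 0.05 and 0.05, and all 3 turn negative with equal sums.

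In the glycogen branch, PGM1, which links glucose 1-phosphate to glycolysis, had 29.4 RPKM in knockdown and 31.5 RPKM in wild type cells. GBE1, the glycogen branching enzyme, had 22.1 RPKM in knockdown and 26.7 RPKM in wild type cells, a log2 change of -0.26. Neither was 20% lower. By level, the 12 glycolysis members averaging 100 RPKM or more had a median log2 change of -0.15, with 9 below 0. The 7 less abundant ones had a median of -0.26, with 7 below 0. Low genes ran lower across the table too. Of named genes averaging 20 RPKM or more, 43.7% were below 0, with a median of 0.03. Of those averaging 1 to 5 RPKM, 54.6% were below 0, with a median of -0.03.

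**Figure D3:**
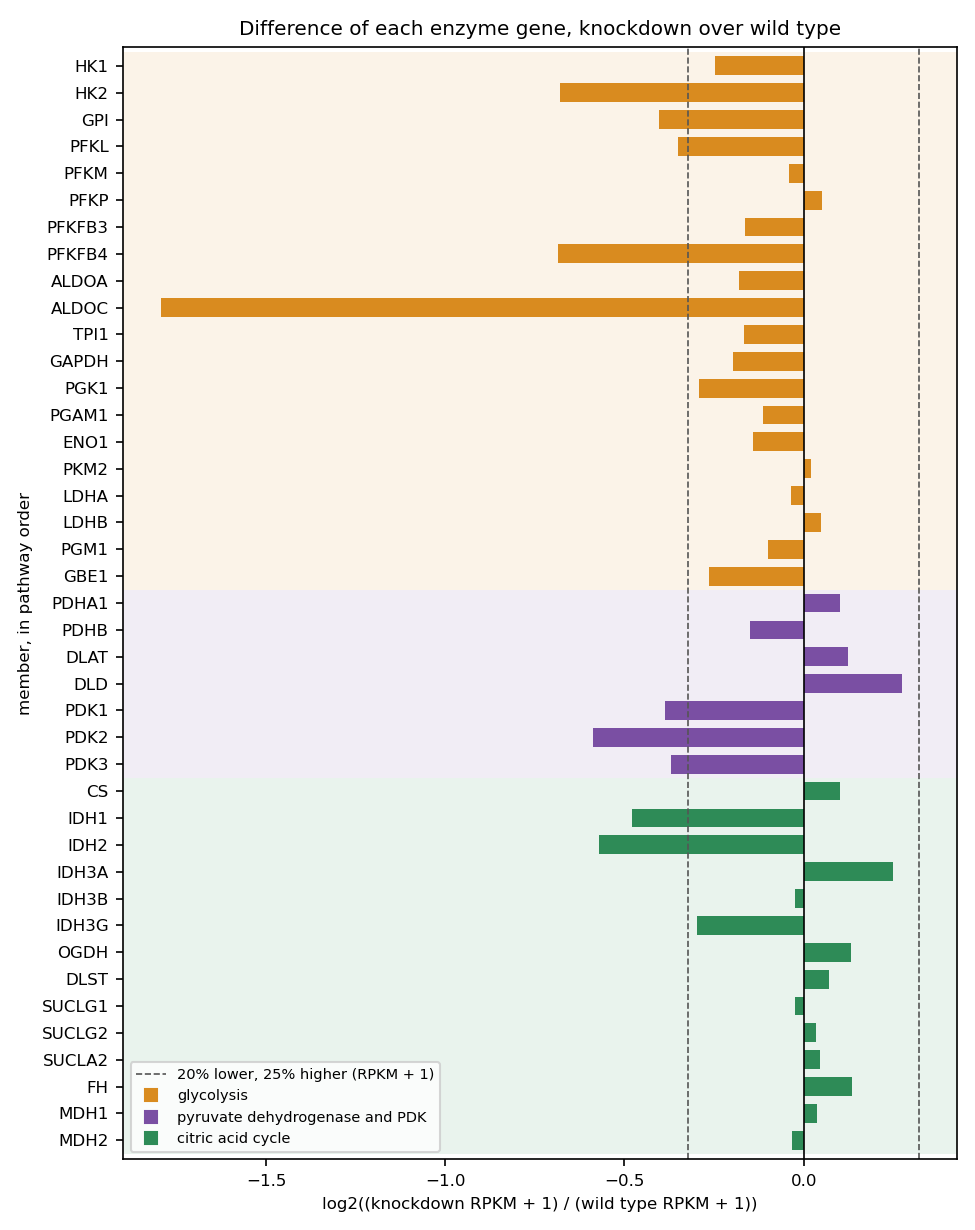
Log2 difference, knockdown over wild type (horizontal axis), of the 41 members found, in pathway order and coloured by class, with dashed lines at 20% lower and 25% higher. ALDOC at -1.79 is the longest bar, PDK1, PDK2 and PDK3 pass the lower line, and no bar passes the upper line.

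At the step from pyruvate to acetyl-CoA the inhibitory kinases were lower, while 3 of 4 subunits of the complex were slightly higher. The latter number becomes 1 of 4 with equal sums. Of all 12158 named genes, 6332 were above 0 as deposited. Levels of all 3 kinases were more than 20% lower in knockdown cells, against 10.6% of all named genes. Among named genes averaging 1 to 5 RPKM, the level of PDK1, that share was 18%. PDK1 (chr2:172555373-172608669), the kinase best known as a HIF target, had 2.54 RPKM in knockdown and 3.63 RPKM in wild type cells. PDK2 (chr17:50094737-50112152), a widely expressed form, had 7.18 RPKM in knockdown and 11.3 RPKM in wild type cells, a log2 change of -0.59. PDK3 (chrX:24465221-24541862) had 8.23 RPKM in knockdown and 10.9 RPKM in wild type cells. The sum of these kinases was 17.9 RPKM in knockdown and 25.9 RPKM in wild type cells, or 69.4%.

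The complex itself had a summed RPKM of 173 in knockdown and 165 in wild type cells, or 105%. PDHA1, the E1 alpha subunit that the kinases phosphorylate, had 50.7 RPKM in knockdown and 47.3 RPKM in wild type cells. PDHB, the E1 beta subunit, had 51.0 and 56.8 RPKM in knockdown and wild type cells. DLAT, the E2 core, had 21.1 and 19.3 RPKM in knockdown and wild type cells. DLD, the E3 subunit also used by the 2-oxoglutarate dehydrogenase complex, had 50.3 RPKM in knockdown and 41.4 RPKM in wild type cells, and its log2 change of 0.27 was the highest of all members. The median log2 change was -0.39 over the 3 kinases and 0.11 over the 4 subunits, which becomes -0.08 with equal sums, against -0.55 for the kinases. Among listed genes outside the module, PDK4, the fasting-induced kinase, was the most abundant kinase, with 42.9 RPKM in knockdown and 55.4 RPKM in wild type cells. With PDK4 included, kinase RPKM summed to 60.9 in knockdown and 81.2 in wild type cells, or 74.9%.

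**Figure D4:**
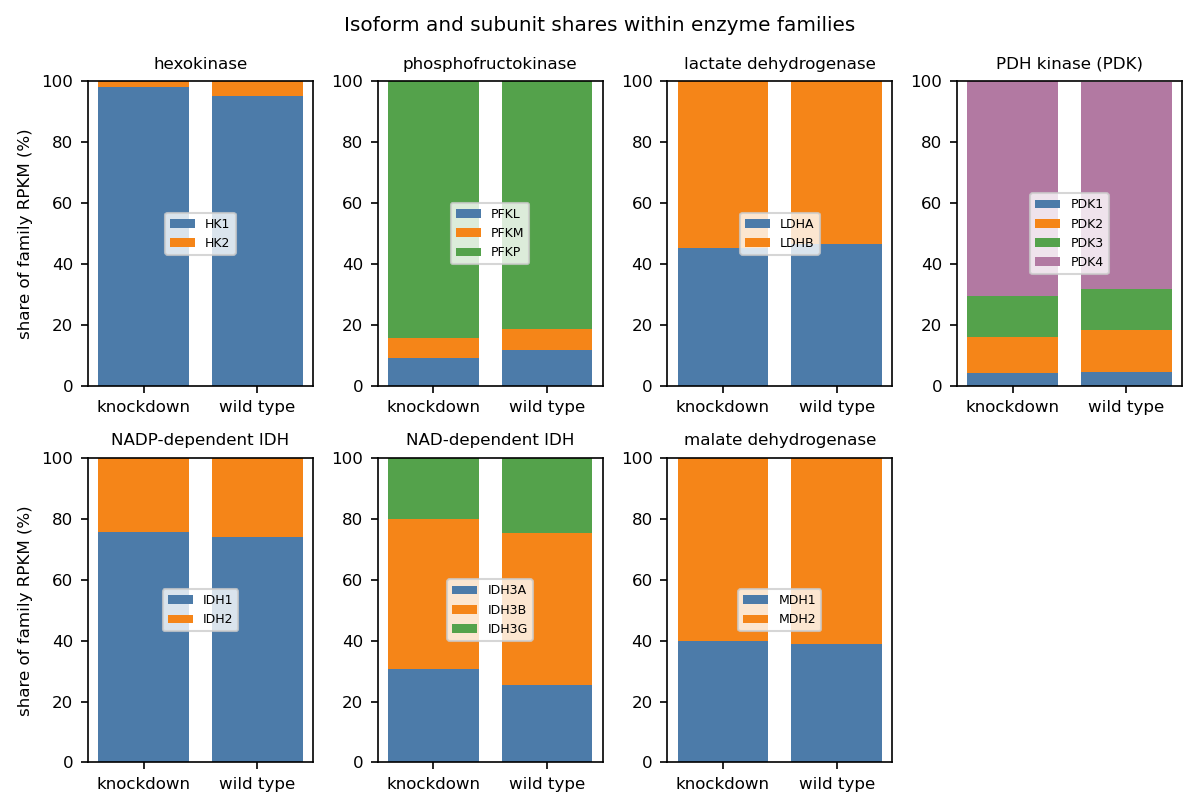
Share of the summed RPKM of each family (vertical axis, percent) held by each isoform or subunit in the knockdown library (left bar) and the wild type library (right bar). PFKP holds 84.3% and 81.4% of phosphofructokinase in knockdown and wild type cells, and IDH3A holds 30.7% and 25.5% of the NAD-dependent isocitrate dehydrogenase.

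In the citric acid cycle class, IDH1 and IDH2 were the 2 members of 14 (14.3%) that were at least 20% lower, against 10.6% of all named genes. With so few genes, that count does not set the class apart from that share. IDH1 (chr2:208236227-208266074), the cytosolic NADP-dependent enzyme that makes NADPH, had 71.1 RPKM in knockdown and 99.3 RPKM in wild type cells, a log2 change of -0.48. IDH2 (chr15:90083045-90102504), its mitochondrial counterpart, had 22.9 RPKM in knockdown and 34.5 RPKM in wild type cells, a log2 change of -0.57. Both were lower by a like amount, and IDH1 held 75.6% of their sum in knockdown and 74.2% in wild type cells.

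The NAD-dependent isocitrate dehydrogenase, the form that drives the cycle forward, is built from 3 kinds of subunit. IDH3A, the catalytic subunit, had 39.6 RPKM in knockdown and 33.1 RPKM in wild type cells, a log2 change of 0.25. IDH3B had 63.5 and 64.6 RPKM in knockdown and wild type cells. IDH3G, a regulatory subunit, had 25.9 RPKM in knockdown and 32.1 RPKM in wild type cells, a log2 change of -0.30. The sum of the subunits was 129.0 RPKM in knockdown and 129.8 RPKM in wild type cells, so IDH3A and IDH3G differed in opposite directions around a nearly equal total. IDH3G overlaps SSR4 on the other strand, and IDH3A overlaps the protein-coding genes CIB2 and ACSBG1. Whether strand was used in counting is not stated.

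The other cycle enzymes reached neither size. CS, citrate synthase at the entry of the cycle, had 104 RPKM in knockdown and 96.8 RPKM in wild type cells. OGDH and DLST, the E1 and E2 parts of the 2-oxoglutarate dehydrogenase complex, had log2 changes of 0.13 and 0.07. OGDH had 34.1 and 31.0 RPKM in knockdown and wild type cells, and DLST had 52.3 and 49.8 RPKM. Succinyl-CoA synthetase, which makes GTP or ATP, had nearly equal levels. SUCLG1, its shared alpha subunit, had 66.5 and 67.7 RPKM in knockdown and wild type cells. SUCLG2, the GTP-specific beta subunit, had 29.5 and 28.8 RPKM, and SUCLA2, the ATP-specific one, had 20.2 and 19.5 RPKM. FH, fumarase, had 52.2 RPKM in knockdown and 47.5 RPKM in wild type cells.

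The malate dehydrogenases, which close the cycle in mitochondria (MDH2) and serve the malate shuttle in the cytosol (MDH1), were the most abundant of the class. MDH2 had 240.0 RPKM in knockdown and 245 RPKM in wild type cells, and MDH1 had 159 and 155 RPKM. Without IDH1 and MDH1, which work in the cytosol, the cycle members summed to 751 RPKM in both libraries, and their median log2 change was 0.04.

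Genes around the pathway were described from lists of related genes. Of 11 genes of glucose, lactate and pyruvate transport that were found, 6 were at least 20% lower and 2 at least 25% higher, against 10.6% and 7.99% of all named genes, with a median log2 change of -0.38. SLC16A3, the lactate exporter MCT4, had 34.4 RPKM in knockdown and 73.3 RPKM in wild type cells, a log2 change of -1.07. BRP44L, now MPC1, a subunit of the mitochondrial pyruvate carrier, had 1.27 RPKM in knockdown and 3.02 RPKM in wild type cells. Its partner BRP44, now MPC2, had 28.6 RPKM in both. SLC16A1, the lactate and pyruvate transporter MCT1, was higher, with 31.2 RPKM in knockdown and 23.7 RPKM in wild type cells, as was SLC2A8, an intracellular glucose transporter, with 9.93 and 7.56 RPKM. The other 4 genes at least 20% lower were named after their values were seen. SLC2A3 and SLC2A1, the abundant glucose transporters GLUT3 and GLUT1 of the cell surface, had log2 changes of -0.64 and -0.50. SLC2A3 had 45.0 RPKM in knockdown and 70.7 RPKM in wild type cells, and SLC2A1 had 28.96 and 41.3 RPKM. SLC16A7, the pyruvate transporter MCT2, had 2.15 RPKM in knockdown and 3.20 RPKM in wild type cells. Of the monocarboxylate transporters SLC16A1, SLC16A3 and SLC16A7, the first was thus higher and the other two were lower. BSG, the basigin chaperone of MCT1 and MCT4, had 336 RPKM in knockdown and 437 RPKM in wild type cells.

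Of 8 other glycolysis enzymes found, 2 were at least 20% lower and 2 at least 25% higher, against the same 10.6% and 7.99% of all named genes. ENO3, the muscle enolase, had 12.2 RPKM in knockdown and 17.6 RPKM in wild type cells, and LDHD, which acts on D-lactate, had 0.973 and 1.56 RPKM. C12orf5, now TIGAR, a phosphatase that lowers fructose 2,6-bisphosphate, was higher, with 7.68 RPKM in knockdown and 5.24 RPKM in wild type cells. PGAM2, the muscle mutase, had 2.84 and 2.06 RPKM in knockdown and wild type cells. Of 8 other pyruvate dehydrogenase genes, PDK4 alone was at least 20% lower, against 10.6% of all named genes. In that list 0 were at least 25% higher on RPKM + 1, against 7.99%. PDP1, a phosphatase that switches the complex back on, had 5.47 RPKM in knockdown and 6.84 RPKM in wild type cells. LIPT1 and PDPR, which serve lipoylation and the phosphatase, had log2 changes of 0.32 and 0.24. LIPT1 had 3.53 RPKM in knockdown and 2.64 RPKM in wild type cells, and fell just short of the higher size once 1 RPKM was added.

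The remaining genes of the cycle also differed little. Of 8 found, 0 were at least 20% lower and 0 at least 25% higher, against 10.6% and 7.99% of all named genes. With so few genes, these counts do not set them apart from those shares. Their median log2 change was 0.08, with 3 below 0. The assembly factors of succinate dehydrogenase marked both ends, SDHAF1 at -0.29 and SDHAF2 at 0.22, and SDHA, the flavoprotein subunit, had 65.1 RPKM in knockdown and 72.5 RPKM in wild type cells. Among 10 regulators above the level filter, 2 were at least 20% lower, against 10.6% of all named genes, and 0 were at least 25% higher, against 7.99%. MLXIPL, the glucose-sensing factor ChREBP, had 2.02 RPKM in knockdown and 4.20 RPKM in wild type cells, and PRKAA1, a catalytic subunit of the energy sensor AMPK, had 18.7 and 27.0 RPKM. EPAS1, which encodes HIF-2 alpha, had 50.2 RPKM in knockdown and 40.4 RPKM in wild type cells, and EGLN1, the main HIF prolyl hydroxylase, had 27.5 and 24.3 RPKM. HIF1A had 86.0 RPKM in knockdown and 99.3 RPKM in wild type cells, a value added after it was seen. HIF activity is set largely by protein stability, which these values do not measure.

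**Figure D5:**
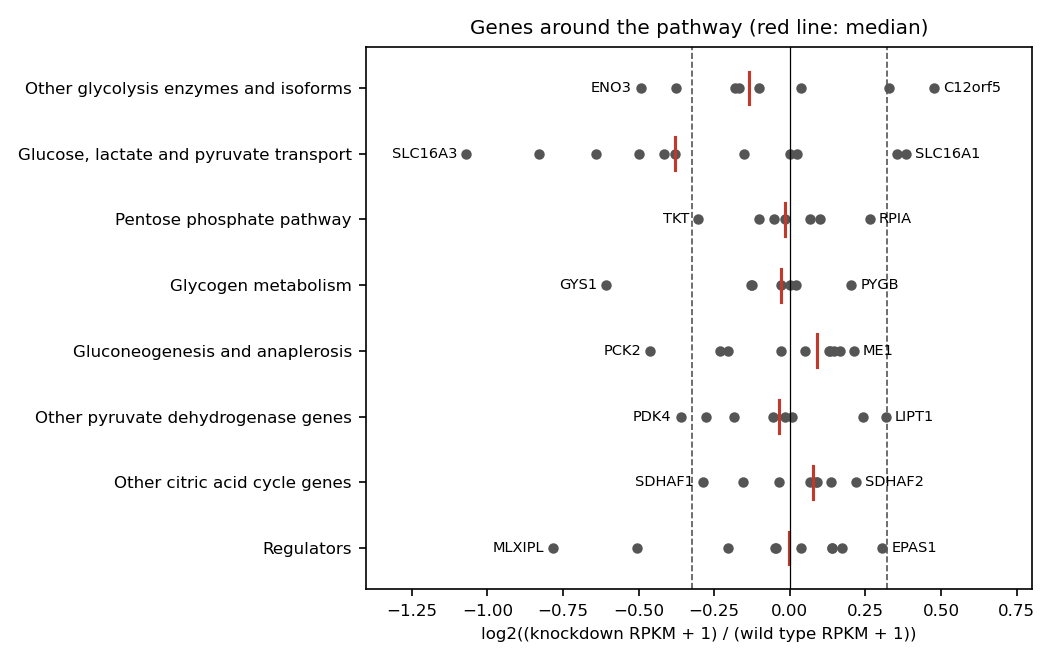
Log2 difference, knockdown over wild type (horizontal axis), of each related gene above the level filter, by list, with the median of each list in red, the extreme genes named and dashed lines at 20% lower and 25% higher. The transport list has the lowest median, -0.38, and SLC16A3 is the lowest gene at -1.07.

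Sequence shared with copies limits several of these values. In GENCODE release 29, 15 of 42 members have at least 1 pseudogene named after them, with 62 for GAPDH, 13 for PGAM1 and 6 for LDHA, and how reads shared with such copies were assigned is not stated. A short RNA gene lies inside 4 members on the same strand (PFKM, PFKFB3, PFKFB4 and ENO1). A gene on the other strand overlaps 26 members, and another protein-coding gene on either strand overlaps 19. The part of these overlaps in the differences was not tested.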

How the data were processed

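RNA-seq of 2 A549 samples, 1 MYOCD knockdown and 1 wild type, was used as deposited. RPKM values were computed by the authors before deposit, 1 column per library. Per the submitters' processing notes, which assign no roles, the tools were TopHat2 2.0.10 and Cufflinks 2.2.1, with GRCh38.p12 and BDGP5 (a fly build) as genome builds. Annotation, read filters and use of strand: not given in the sources used here. No counts were given, and depth is unknown: no window of 0.01 held more than 29 of the log2 ratios of 2212 rows below 2 RPKM, so no steps of single reads were seen.

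Rows with no gene name (1909 of 14952) were left out, values of repeated names were summed, and a pseudocount of 1 and a minimum mean of 1 RPKM were applied. With 1 library per group, genes were counted past 20% lower, 25% higher and 2-fold without a test. Named genes are all members, MYOCD, and the 2 highest and 2 lowest genes of the related lists, with exceptions marked and 1 such gene not reported here. Members and lists were chosen with earlier results of these data known. Gene coordinates came from GENCODE release 29 on GRCh38, which may differ from the authors' loci, and promoter windows from RefSeq (GRCh38.p14). Scripts ran in Python 3.11.15 with matplotlib 3.10.9, pandas 2.3.3 and numpy 2.4.6, and were tested on simulated data. Other pseudocounts, scalings, filters and row rules were tried.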

Additional observations from a re-analysis of the deposited data

How the results depend on the processing

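The difference between the glycolysis and cycle medians was -0.20 or -0.21 under every alternative run. All runs used the same 2 libraries, and scaling moves both medians together, so this does not measure variation between libraries. With libraries scaled to equal sums, the medians were -0.37 for glycolysis, -0.35 for the pyruvate dehydrogenase step and -0.16 for the cycle, whose sign thereby turned, and 19 members were at least 20% lower. That scaling moved the median of all named genes to -0.17 and their share at least 20% lower to 25.1%. With a pseudocount of 5 RPKM, 5 members were at least 20% lower and 0 were 2-fold lower, because PFKL, PFKFB4, PDK1, PDK3 and ALDOC then missed those sizes. Requiring a mean of 5 RPKM left 0 members 2-fold lower and gave a median of -0.026 for the pyruvate dehydrogenase step. In that step, alternatives chosen after seeing the data gave 0.11 without the kinases and -0.39 for the kinases alone. With no filter, which adds HK2, or with the ENO2 row added, 10 members were at least 20% lower. No paired analysis was possible because each group has 1 library. Unknown depth limits HK2, ALDOC, PFKFB4 and PDK1 most.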

Other observations

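The neighbouring pathways that share intermediates with glycolysis differed less than its transporters. Of 7 pentose phosphate genes, which are abundant in A549 cells, 0 were at least 20% lower and 0 at least 25% higher. Over all named genes these shares were 10.6% and 7.99%. With so few genes, the counts do not set them apart from those shares. Their median log2 change was -0.01. TKT, transketolase, had 652 RPKM in knockdown and 805 RPKM in wild type cells, and PGD, which makes NADPH, had 699.6 and 751 RPKM. RPIA and RPE, which interconvert pentose phosphates, had log2 changes of 0.27 and 0.10. Of 7 other glycogen genes, GYS1, glycogen synthase, alone was at least 20% lower, against 10.6% of all named genes. GYS1 had 13.4 RPKM in knockdown and 20.9 RPKM in wild type cells. PYGB and GYG1, a glycogen phosphorylase and the glycogen primer, had log2 changes of 0.20 and 0.02.

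Of 10 genes of gluconeogenesis and of routes that feed or drain the cycle, PCK2 alone was at least 20% lower, against 10.6% of all named genes. PCK2, the mitochondrial enzyme that makes phosphoenolpyruvate, had 22.7 RPKM in knockdown and 31.7 RPKM in wild type cells. PC, pyruvate carboxylase, had 10.1 RPKM in knockdown and 12.1 RPKM in wild type cells. The malic enzymes ME1 and ME2 had log2 changes of 0.21 and 0.17.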
